A study of Homo sapiens with 6 samples.

Results

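The islands of H3K27me3 at 10 imprinted genes, H19, IGF2, KCNQ1, PHLDA2, DLK1, MEG3, PEG3, MEST, PLAGL1 and GNAS, were read in 3 lymphoma lines, all from diffuse large B cell tumours. An island is an interval in which the authors' caller found more H3K27me3 reads than input reads, and it counted for a gene when at least 1 of its bases lay within 5 kb of the gene's interval on hg19. By this rule 60 of the 71913 autosomal islands belonged to the 10 loci, 18 of 21258 (Pfeiffer), 20 of 23066 (WSU-DLCL2) and 22 of 27589 (KARPAS-422). The rule names genes known to be imprinted and uses no value of these files, though its members were chosen with earlier results of these data known. All 3 lines carry mutant EZH2 according to the labels, and no line with normal EZH2 was analysed here. Their labelled average gIC50 values, for which the labels name no compound, were 28 nM (Pfeiffer), 134 nM (WSU-DLCL2) and 232 nM (KARPAS-422). The series addresses lines that respond differently to the EZH2 inhibitor GSK126, and the cells of these libraries were fixed after growth in medium, with no inhibitor named in their labels.

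Imprinted genes are expressed from the chromosome inherited from only one parent. Most lie in clusters controlled by a stretch of DNA that is methylated on one parental copy, and noncoding RNAs transcribed from such clusters often take part in silencing. H3K27me3, the repressive histone mark written by the methyltransferase EZH2 within Polycomb repressive complex PRC2, is one of the marks found on the silent copy of several of these clusters. It also marks many developmental genes that are off on both copies, and the lists used here do not separate the parental copies.

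Per line there was a single library of H3K27me3 chromatin and a single one of input, so differences between lines have no replicate spread to be set against and were not tested. Intervals given with a fold are exact 95% intervals for the ratio of 2 read counts. They cover counting error only, since amplified reads are not independent molecules. Island totals over the autosomes were 17024803 H3K27me3 and 8800268 input reads (Pfeiffer), 17188115 and 8224578 (WSU-DLCL2), and 16039824 and 5694645 (KARPAS-422). The fold is the ratio of the 2 counts after the authors' library scaling, and its median over autosomal islands was 1.58 (Pfeiffer), 1.54 (WSU-DLCL2) and 1.61 (KARPAS-422). Where 3 values follow without names, they keep this order of lines.

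Most of the chosen loci lay under broad H3K27me3. The window of a locus is the gene with 5 kb on either side. The median share of a window inside islands was 86.1% (Pfeiffer), 78.5% (WSU-DLCL2) and 79.9% (KARPAS-422). Over the bases of all 10 windows together the share was 67.8%, 64.8% and 67.4%, whereas islands covered 25.6%, 24.8% and 24.7% of the autosomes. The 10 genes split into a more and a less covered group. H19, IGF2, KCNQ1, PHLDA2, DLK1 and MEG3, the members of the imprinted clusters of chromosomes 11 and 14, had at least 76.3% of their windows covered in every line. PEG3, MEST, PLAGL1 and GNAS, which lie on other chromosomes, ranged from 0% to 62.5%. Loci with at least 50% coverage numbered 6 (Pfeiffer), 6 (WSU-DLCL2) and 8 (KARPAS-422) of 10, while 24.8%, 23.8% and 23.2% of autosomal tiles of 100 kb were covered that far. High coverage was not rare among autosomal tiles as short as some of these windows. The coverage of H19 was reached by 16.4%, 15.1% and 13.6% of tiles of its length, and that of IGF2 by 15.9%, 16.2% and 14.3%. For PHLDA2 this held for 17.8%, 16.5% and 18.3%, and for DLK1 for 14.1%, 12.8% and 11.3%. Neighbouring members share a cluster, so the 10 loci are not 10 independent cases.

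**Figure D1:**
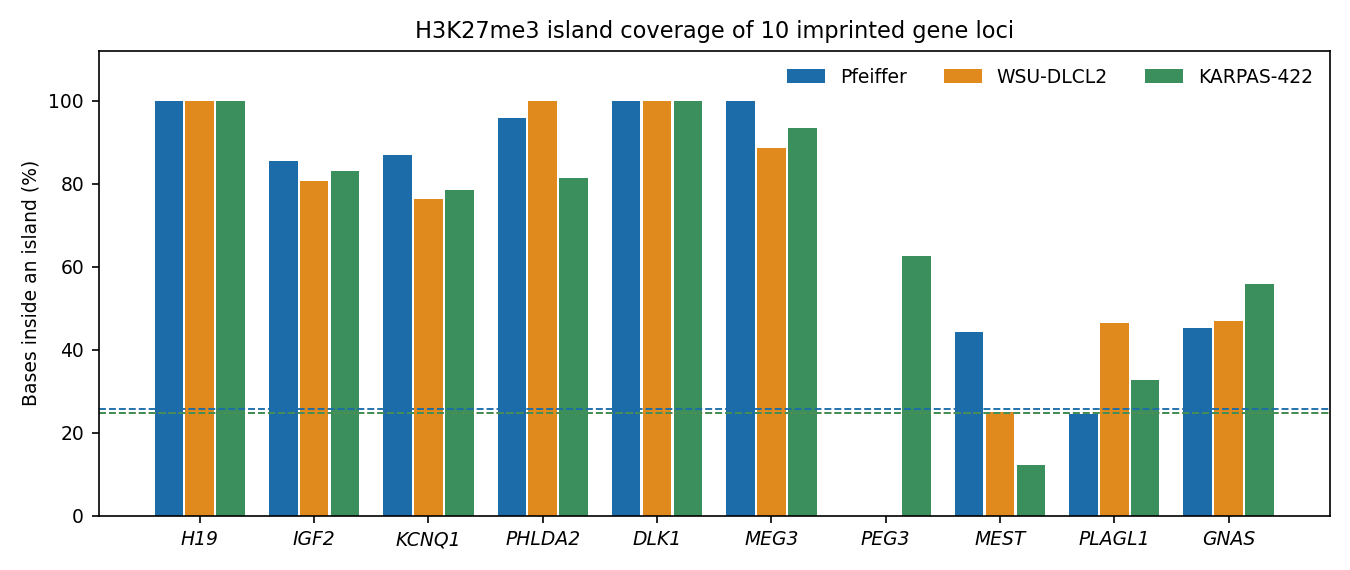
Share of bases inside an H3K27me3 island (y axis, percent) in the window of each imprinted gene (x axis) for 1 library per line; dashed lines give the share of the autosomes covered in the line of the same colour. The 6 genes on chromosomes 11 and 14 lie at 76.3% or more in every line, and PEG3 has a bar in KARPAS-422 only, at 62.5%.

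Most of the stronger islands lay at the 6 clustered genes, though not at each of them in every line. Among the islands of the 10 loci, 9 of 18 (Pfeiffer), 5 of 20 (WSU-DLCL2) and 13 of 22 (KARPAS-422) had a fold of at least 2, against 10.5%, 11.3% and 19.6% of all autosomal islands. Of these, 8, 5 and 13 lay on chromosomes 11 and 14, which held 12 of 18, 13 of 20 and 15 of 22 islands of the loci at any fold. The remaining island with a fold of at least 2, in Pfeiffer, was one of 3 kb beyond the 3′ end of PLAGL1. In WSU-DLCL2 all 5 lay at H19, IGF2, KCNQ1 and PHLDA2. Its islands at DLK1 (fold 1.73) and MEG3 (1.51 and 1.56) were weaker than its right-hand island at GNAS (1.88). The PHLDA2 island of Pfeiffer, at 1.66, was also below 2. Summed over all islands of the 10 loci there were 31925 H3K27me3 and 13804 input reads (Pfeiffer), 26047 and 10912 (WSU-DLCL2), and 35432 and 9370 (KARPAS-422). The resulting folds were 1.99 (95% interval 1.95 to 2.03), 1.88 (1.84 to 1.92) and 2.30 (2.25 to 2.35). Whole islands were counted here, including bases beyond the window. The islands of the loci were long, with medians of 57.75, 41.25 and 40.125 kb in the 3 lines in the same order against 20.25, 18.75 and 15.75 kb for autosomal islands, but a long island meets a fixed window more easily than a short one.

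Chromosome 11 carried the largest block. From H19 to PHLDA2, a stretch of 945 kb, the covered share was 86.9% (Pfeiffer), 82.7% (WSU-DLCL2) and 80.2% (KARPAS-422). Of 3035 autosomal tiles of that length only 1.22%, 0.758% and 2.37% were covered as far. The stretch was divided into 14, 15 and 20 islands. It holds 13 protein-coding genes between H19 and PHLDA2 in the order of the RefSeq table, IGF2 and KCNQ1 counted, among them INS, ASCL2 and CDKN1C, a cell cycle inhibitor that is itself imprinted. Their positions on hg19 were not used here.

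**Figure D2:**
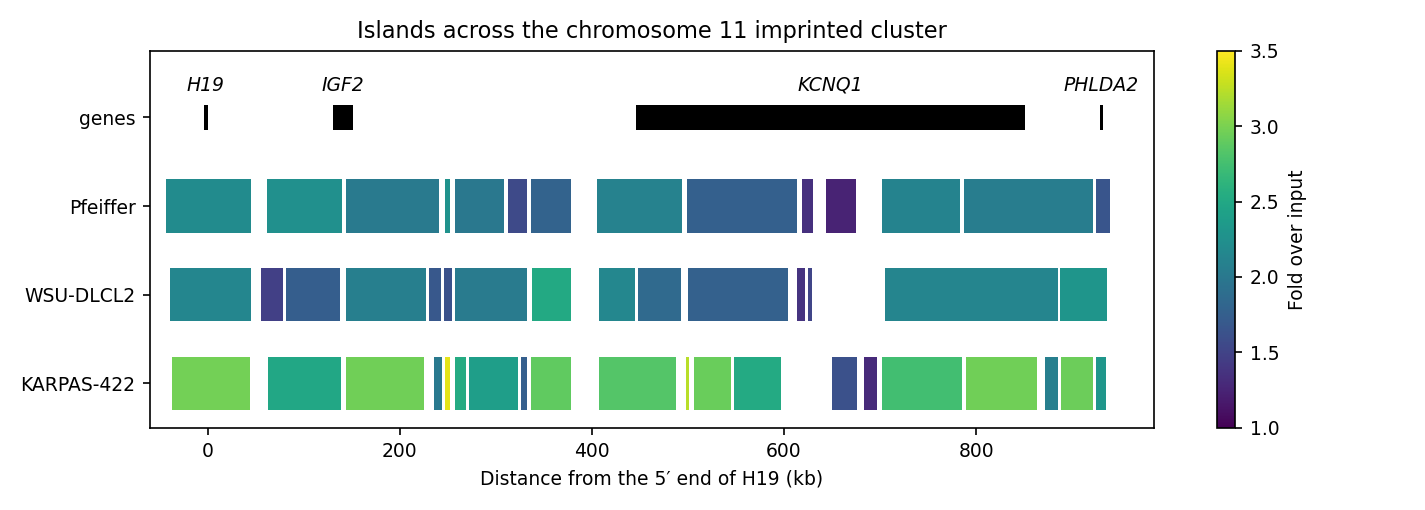
Islands of each line (rows) across the imprinted cluster of chromosome 11, with distance in kb from the 5′ end of H19 on the x axis, gene intervals in black and colour giving the authors' fold over input. The mark runs through most of the 945 kb in all 3 lines, with its longest gaps inside KCNQ1 and with higher folds in KARPAS-422.

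H19, the noncoding RNA expressed from the maternal copy, lay entirely within 1 island in each line. The island ran from 1977001 to 2064750 in Pfeiffer, from 1980751 to 2064750 in WSU-DLCL2 and from 1982251 to 2064000 in KARPAS-422, thus over 87.75, 84 and 81.75 kb. It held 2481 H3K27me3 and 972 input reads in Pfeiffer, a fold of 2.20 (2.04 to 2.37). WSU-DLCL2 had 2427 and 889 reads and a fold of 2.15 (1.99 to 2.33). KARPAS-422 had 2196 and 450 reads and a fold of 2.97 (2.68 to 3.29). The right-hand borders of this island differed by at most a single window of 750 bases between lines.

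IGF2, the paternally expressed fetal growth factor that shares enhancers with H19, had 2 islands and 1 break in each line. The left-hand island, over the 3′ part of the gene and beyond, ended at 2159250 in Pfeiffer, while WSU-DLCL2 had 2157750 and KARPAS-422 had 2158500. The next island began at 2163751 in all 3 lines. The break therefore measured 4.5, 6 and 5.25 kb and lay 7.25 kb inside the 5′ end of the gene at its nearest point, with 4.5 kb of it free of islands in every line. Coverage of the window was 85.5%, 80.6% and 83.1%, and the gene's 5′ end lay in an island in each line, with folds of 2.02, 2.07 and 2.96. Over both islands the fold was 2.12 (2.01 to 2.23) in Pfeiffer, while WSU-DLCL2 had 1.93 (1.82 to 2.04) and KARPAS-422 had 2.72 (2.53 to 2.92).

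KCNQ1, a voltage-gated potassium channel gene and the host of the antisense noncoding RNA KCNQ1OT1, had 6, 6 and 8 islands with 5, 5 and 7 breaks in Pfeiffer, WSU-DLCL2 and KARPAS-422. Its window of 415 kb was covered to 86.8%, 76.3% and 78.5%, and 3.64%, 5.14% and 5.31% of autosomal tiles of that length reached as much. The outer parts of the gene carried long islands in each line. In Pfeiffer these were 2424751 to 2514000 with a fold of 2.10 on the left and 2722501 to 2803500 and 2807251 to 2941500 with folds of 2.12 and 2.05 on the right. On the left of WSU-DLCL2 an island of 38.25 kb with a fold of 2.15 ended at 2465250, before the gene, and the next, from 2468251 to 2512500, had a fold of 1.86. WSU-DLCL2 had a single island of 180 kb on the right, from 2724751 to 2904750, with a fold of 2.13 (2.03 to 2.25) from 5397 H3K27me3 and 1993 input reads. KARPAS-422 had a fold of 2.83 on the left, from 2427001 to 2507250, and on the right 2.74 from 2722501 to 2805750 and 2.96 from 2809501 to 2883000. Further into the gene from the left lay an island of 115.5 kb in Pfeiffer and of 104.25 kb in WSU-DLCL2, both with a fold of 1.76. In KARPAS-422 the islands between 2517751 and 2616750 had folds of 3.23 (from 85 H3K27me3 and 16 input reads), 2.93 and 2.52, as high as in the outer parts or nearly so.

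The middle of KCNQ1 was the weak part of the cluster. Between 183.75 and 256.5 kb from the 5′ end Pfeiffer had 1 island of 30.75 kb, with a fold of 1.24 (1.09 to 1.41) that exceeded only 3.34% of the folds in its list, flanked by breaks of 14.25 and 27.75 kb. WSU-DLCL2 had none there and a single break of 75.75 kb, from 2649001 to 2724750. KARPAS-422 had a break of 53.25 kb and then 2 islands with folds of 1.62 (1.36 to 1.94) and 1.30 (1.02 to 1.65). On the right the stretch ended at the same window in Pfeiffer and KARPAS-422, where the next island began at 2722501, and 2.25 kb later in WSU-DLCL2. Stretches free of islands in every line were 2514001 to 2517750, 2649751 to 2664000, 2695501 to 2703750 and 2716501 to 2722500. The low folds in the middle went with fewer H3K27me3 reads and more input per kb than in the long islands to their right. The Pfeiffer island of 30.75 kb held 18.2 H3K27me3 and 12.7 input reads per kb, and its right-hand neighbour 28.9 and 11.7. In KARPAS-422 the island from 2703751 to 2716500 held 17.6 and 8.24, and its right-hand neighbour 28.6 and 6.34.

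PHLDA2, a gene that restrains placental growth and is expressed from the maternal copy, lay in 1 island per line, but islands of very different length. Pfeiffer had 15 kb (329 H3K27me3 and 171 input reads, fold 1.66, interval 1.37 to 2.00). WSU-DLCL2 had 48.75 kb (1485 and 509 reads, fold 2.30, 2.08 to 2.55). KARPAS-422 had 9.75 kb (202 and 53 reads, fold 2.32, 1.70 to 3.20). The gene's interval itself was covered fully in each line. The mark thinned out just upstream: of the 50 kb on that side 17%, 11% and 8% were covered, against 94%, 94% and 85% of the 50 kb downstream, on the side of the cluster.

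On chromosome 14 the noncoding RNA MEG3, expressed from the maternal copy, and its neighbour DLK1, a paternally expressed transmembrane protein of the Notch ligand family, lay in a block of 145 kb that was covered to 97.9% (Pfeiffer), 79.3% (WSU-DLCL2) and 94.8% (KARPAS-422). Of autosomal tiles of that length 2.81%, 9.40% and 2.93% were covered as far. DLK1 was wholly covered in every line. Its island measured 275.25 kb (Pfeiffer), 69.75 kb (WSU-DLCL2) and 279 kb (KARPAS-422), with right-hand borders at 101262000 in Pfeiffer and KARPAS-422 and at 101223750 in WSU-DLCL2. It held 7312 H3K27me3 and 3084 input reads in Pfeiffer (fold 2.04, 1.96 to 2.13), 1673 and 764 in WSU-DLCL2 (fold 1.73, 1.58 to 1.88) and 9316 and 2552 in KARPAS-422 (fold 2.22, 2.12 to 2.32). WSU-DLCL2 was thus lowest in both length and fold.

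MEG3 had its break at the 5′ end. WSU-DLCL2 had no island from 101289751 to 101295000 and KARPAS-422 had none from 101292001 to 101295000, and in both lines this stretch contains the first kb of the gene. In Pfeiffer a single island, from 101265001 to 101384250, ran through. Coverage of the window was 100% (Pfeiffer), 88.6% (WSU-DLCL2) and 93.5% (KARPAS-422), and the folds were 2.13 (1.99 to 2.28), 1.55 (1.44 to 1.67) and 2.30 (2.13 to 2.47). The islands of KARPAS-422 and WSU-DLCL2 resumed at the same window, 101295001.

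**Figure D3:**
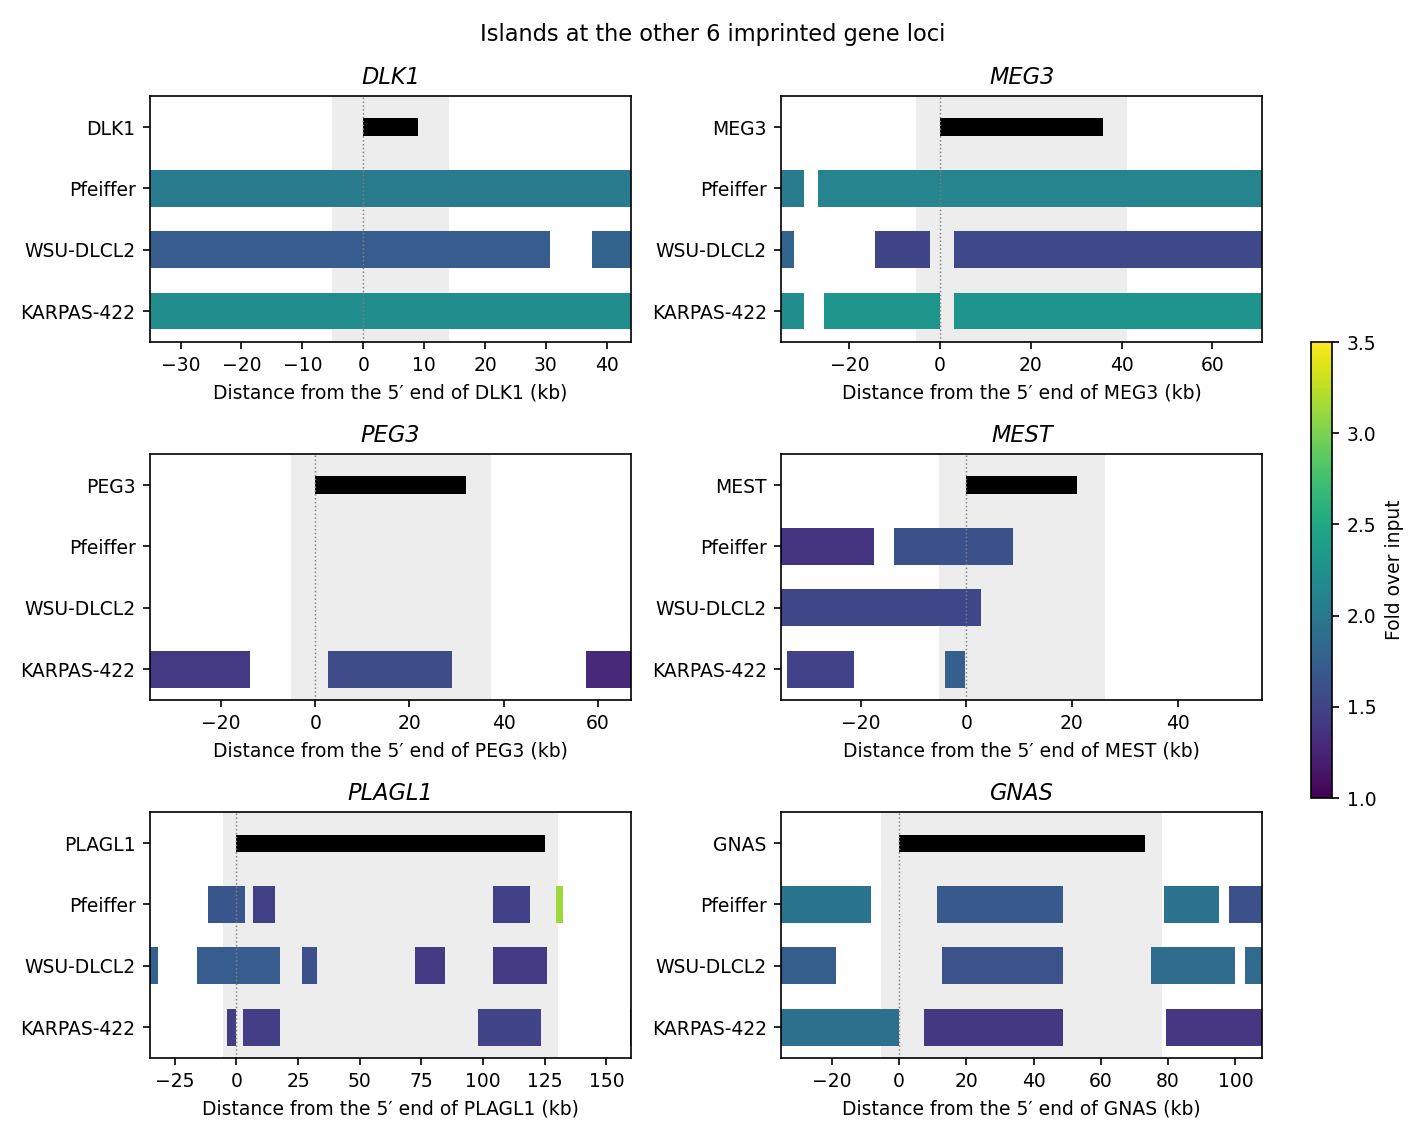
Islands of each line (rows) around DLK1, MEG3, PEG3, MEST, PLAGL1 and GNAS, with distance from the gene's 5′ end in kb on the x axis, positive into the gene, the gene in black, the 5 kb window shaded and colour giving the authors' fold over input; islands run on past the panel edges. DLK1 and MEG3 are covered nearly throughout, PEG3 has an island in KARPAS-422 only, and the GNAS islands of all 3 lines stop 48.75 kb into the gene.

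PEG3, a paternally expressed zinc finger gene on chromosome 19, was the member that differed most between lines. Neither Pfeiffer nor WSU-DLCL2 had an island within 5 kb. Around it, Pfeiffer listed none for 601.5 kb and WSU-DLCL2 none for 864 kb. KARPAS-422 had 1 island, from 57324001 to 57350250, with 720 H3K27me3 and 279 input reads and a fold of 1.57 (1.36 to 1.81), which covered 62.5% of the window. The island began 2.75 kb inside the 5′ end, so that the first kb of the gene lay outside it. Islands also covered 72.5% of the 50 kb upstream and 43% of the 50 kb downstream in KARPAS-422, and none of either in the other lines. Per kb the island of KARPAS-422 held 1.37 times the H3K27me3 reads and 1.42 times the input reads of the line's median autosomal island. Over all islands of a line centred within 2 Mb of the window the factor for input was 0.933 (Pfeiffer), 0.961 (WSU-DLCL2) and 1.23 (KARPAS-422). The part of this higher input in the difference was not tested. The reads of a locus without an island are not known.

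MEST, a paternally expressed gene for a protein of the hydrolase fold on chromosome 7, had the mark upstream and, in Pfeiffer and WSU-DLCL2, over its 5′ end, and none over the rest of the gene. The single island of each line ended at 130134750 (Pfeiffer), 130128750 (WSU-DLCL2) and 130125750 (KARPAS-422). Coverage of the window was accordingly 44.4%, 25% and 12.1%, and in KARPAS-422 the island ended 0.25 kb before the gene. The folds of 1.61 (1.37 to 1.89), 1.53 (1.37 to 1.72) and 1.74 (1.15 to 2.72) were close to the median island of each list, and the last rests on 89 H3K27me3 and 31 input reads. No line had an island over the final 17.25 kb of the window.

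PLAGL1, a paternally expressed zinc finger transcription factor that restrains cell proliferation, had 4, 4 and 3 islands, at both ends of the gene in every line and in WSU-DLCL2 also nearer its middle. Coverage was 24.4% (Pfeiffer), 46.3% (WSU-DLCL2) and 32.8% (KARPAS-422), and 37.5%, 25.2% and 32.0% of autosomal tiles of the same length reached as much. A stretch of 39.75 kb inside the gene, from 144313501 to 144353250, was free of islands in all 3 lines. Pooled folds were 1.63 (1.45 to 1.84), 1.58 (1.44 to 1.73) and 1.48 (1.31 to 1.68). One short island of Pfeiffer, from 144253501 to 144256500 beyond the 3′ end, had 91 H3K27me3 and 25 input reads and a fold of 3.13 (1.99 to 5.09), higher than 99.8% of its list. It only just met the 5 kb limit.

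GNAS encodes the alpha subunit of the stimulatory G protein and, from further promoters, products expressed from 1 parental copy. In every line it had an island over the first part of the gene that ended at 57462750, while the left-hand border lay at 57425251 (Pfeiffer), 57426751 (WSU-DLCL2) and 57421501 (KARPAS-422). Its fold was 1.68 (1.49 to 1.91) in Pfeiffer, while WSU-DLCL2 had 1.63 (1.44 to 1.84) and KARPAS-422 had 1.41 (1.26 to 1.58). The stretch from 57462751 to 57489000, which takes in the 3′ end of the gene, and the first 7.5 kb of the gene were free of islands in all 3 lines. KARPAS-422 had a second island, of 104.25 kb with a fold of 1.91, that ended at the gene's left edge as rounded to 1 kb, and WSU-DLCL2 had one of 24.75 kb with a fold of 1.88 just beyond the right edge. Window coverage was 45.2% (Pfeiffer), 47.0% (WSU-DLCL2) and 55.7% (KARPAS-422).

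At H19, IGF2 and KCNQ1 KARPAS-422 had the highest fold and the lowest input, while H3K27me3 reads differed little between the lines. Reads per kb of the islands at a gene were divided by those of the median autosomal island of the same line. At H19 this factor was 1.44 (Pfeiffer), 1.38 (WSU-DLCL2) and 1.34 (KARPAS-422) for H3K27me3 and 1.03, 0.985 and 0.734 for input. At IGF2 it was 1.40, 1.32 and 1.38 for H3K27me3 and 1.04, 1.06 and 0.826 for input. At KCNQ1 it was 1.34, 1.35 and 1.36 for H3K27me3 and 1.09, 1.05 and 0.837 for input. PHLDA2, in the same cluster, also had the lowest input in KARPAS-422, but its H3K27me3 reads differed more between the lines. Its factors were 1.12, 1.46 and 1.03 for H3K27me3 and 1.06, 0.972 and 0.725 for input. They come from islands of unlike length, 15, 48.75 and 9.75 kb, and that of WSU-DLCL2 reached 41.25 kb past the gene on the left. With a margin of 20 kb, which takes in neighbouring islands, the fold at PHLDA2 was 2.01, 2.30 and 2.80, against 1.66, 2.30 and 2.32. Low input was not limited to the genes: over all islands within 2 Mb of H19 the input factor was 1.05, 1.00 and 0.797. On chromosome 14 KARPAS-422 had the highest factors for both libraries. At DLK1 these were 1.35, 1.15 and 1.66 for H3K27me3 and 1.04, 1.02 and 1.22 for input, and at MEG3 1.22, 0.972 and 1.55 for H3K27me3 and 0.900, 0.963 and 1.10 for input. At GNAS both factors were again highest in KARPAS-422, at 1.02, 1.15 and 1.43 for H3K27me3 and 0.949, 1.02 and 1.33 for input. These values include islands outside the gene, of 104.25 kb in KARPAS-422 and 24.75 kb in WSU-DLCL2. In the island over the first part of GNAS alone the factors were 1.02, 1.08 and 1.21 for H3K27me3 and 0.949, 1.02 and 1.40 for input. There KARPAS-422 had the lowest fold, 1.41 against 1.68 (Pfeiffer) and 1.63 (WSU-DLCL2). What part input has in these folds was not tested.

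**Figure D4:**
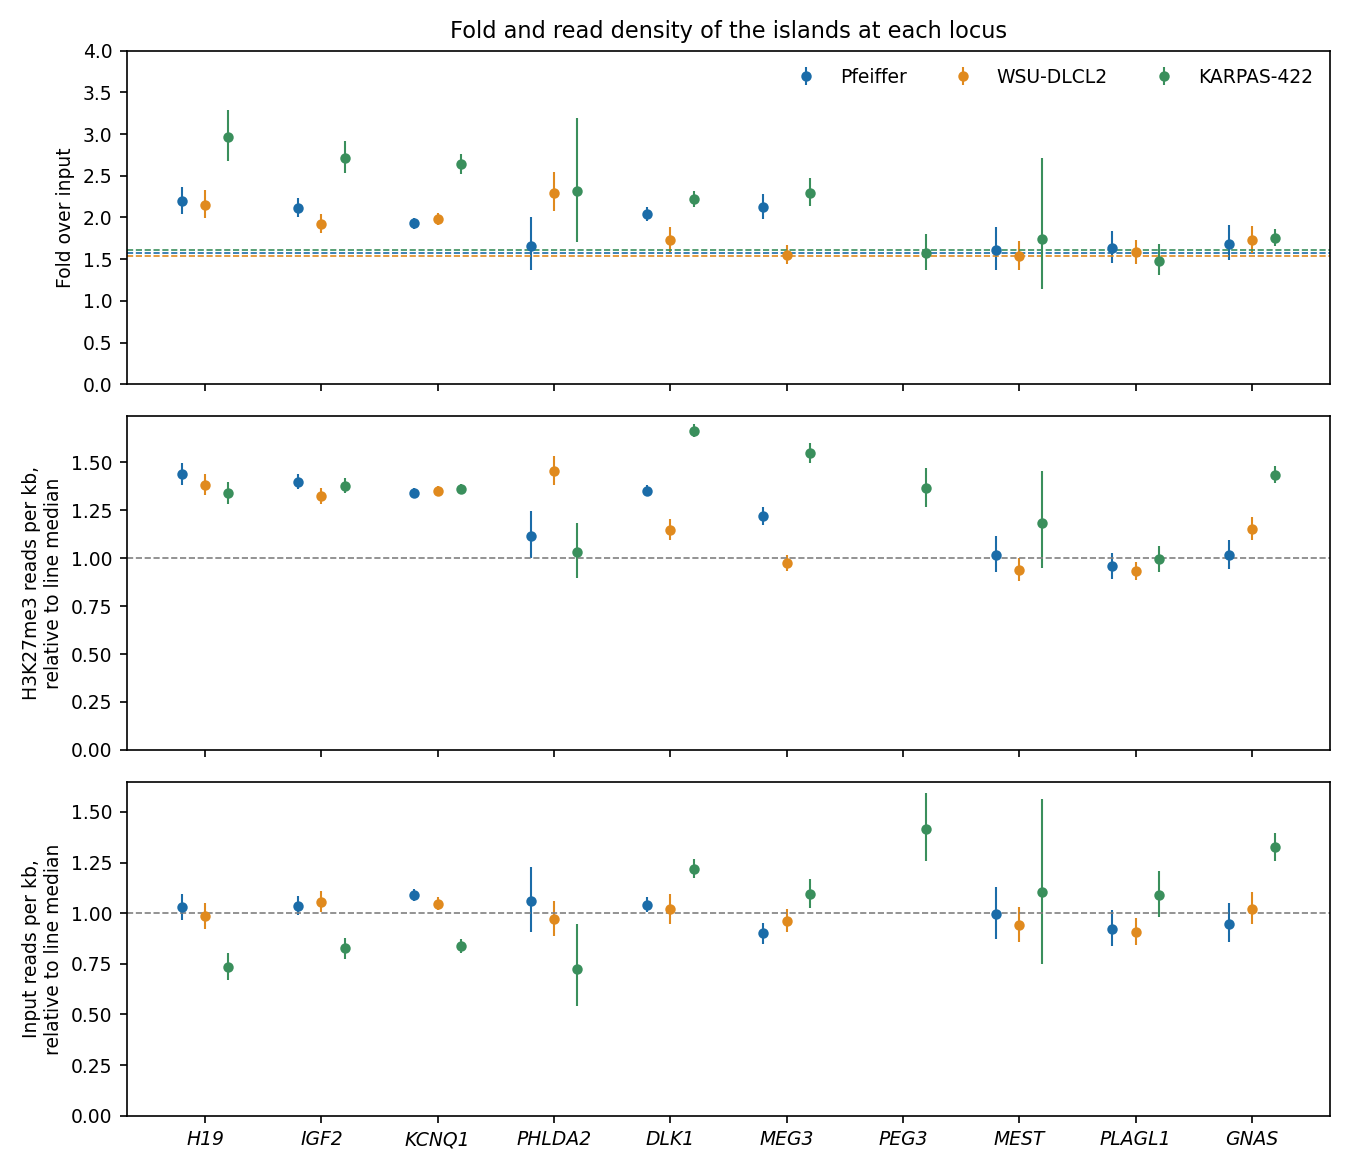
Fold over input (top; dashed lines, the median island of each line), H3K27me3 reads per kb (middle) and input reads per kb (bottom) of the islands at each gene, the last 2 divided by the median island of the same line (dashed line at 1); points are single libraries and bars 95% counting intervals. At H19, IGF2 and KCNQ1 the lines differ in fold and input but little in H3K27me3 reads. At PHLDA2 they differ in H3K27me3 reads as well, over islands of 15 (Pfeiffer), 48.75 (WSU-DLCL2) and 9.75 (KARPAS-422) kb.

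Overlap between the lines is given beside that over the autosomes as a description only, since it rises with coverage alone, and 67.8%, 64.8% and 67.4% of the windows were covered against 25.6%, 24.8% and 24.7% of the autosomes. Whether the lines overlapped more than this coverage gives was not tested. Of the 828 kb in the 10 windows, 54.9% was covered in all 3 lines, against 14.8% of the autosomes. Where at least 1 line had the mark, all 3 had it over 69.0% of the bases, against 41.2% on the autosomes. The Jaccard index divides the bases shared by a pair of lines by those covered in at least 1 of the pair. It was 0.82 (Pfeiffer with WSU-DLCL2), 0.78 (Pfeiffer with KARPAS-422) and 0.74 (WSU-DLCL2 with KARPAS-422), against 0.58, 0.55 and 0.55 over the autosomes. KCNQ1 alone supplies 415 kb of the windows. Locus by locus the index of Pfeiffer and WSU-DLCL2 was 1 at H19 and DLK1 and lowest at PLAGL1 (0.52) and MEST (0.56). With KARPAS-422 it was 0 at PEG3 for either line, and at MEST 0.27 for Pfeiffer and 0.48 for WSU-DLCL2. A difference in coverage of 25 percentage points or more was found at 0 of 10 loci in the comparison of Pfeiffer with WSU-DLCL2. Pfeiffer minus KARPAS-422 gave 2 such loci, PEG3 at -62.5 points and MEST at 32.3 points. WSU-DLCL2 minus KARPAS-422 gave 1, PEG3 at -62.5 points. Among autosomal tiles of 100 kb, 15.8%, 16.7% and 16.9% differed that much for the pairs in the same order, so these counts are near the background.

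The exact borders of islands were shared about as often as elsewhere. Of the borders inside the windows, 2 of 22 (Pfeiffer), 2 of 25 (WSU-DLCL2) and 3 of 33 (KARPAS-422) were met within 750 bases by a border of the same side in both other lines. Over the autosomes this held for 10.3%, 9.46% and 7.86%. The borders met in every line were the start of the IGF2 island at 2163751 and the end of the GNAS island at 57462750. The end of the left-hand IGF2 island was met from KARPAS-422, whose border lies between the others.

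Gene starts lay inside islands at 8 (Pfeiffer), 6 (WSU-DLCL2) and 5 (KARPAS-422) of the 10 loci, taking the first kb of the gene's interval as the start. Of all autosomal bins of 1 kb, 25.1%, 24.2% and 24.0% lay wholly inside an island. Starts of other genes on hg19 were not used here, so this background is not one of gene starts. H19, IGF2, PHLDA2 and DLK1 had a covered start in every line, and PEG3 and GNAS in none. The lines differed at the other 4. The start of KCNQ1 was uncovered in WSU-DLCL2, where a break of 3 kb ran from 2465251 to 2468250, and that of MEG3 in WSU-DLCL2 and KARPAS-422. MEST and PLAGL1 had an uncovered start in KARPAS-422, by 0.25 kb at each gene. Several of these genes have more than 1 start, and the intervals of the rule are rounded to 1 kb, so distances under 1 kb are not resolved.

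The sequences around the 5′ starts of MEG3, MEST, PLAGL1 and GNAS are shown because these starts were uncovered in some or all lines. They come from RefSeq on GRCh38.p14, run 250 bases before to 50 bases after the start on the gene's own strand, and have the CpG dinucleotides, the sites of DNA methylation, in capitals. The islands are on hg19, and no position was carried between the builds, so these starts need not be the 5′ ends of the hg19 intervals. The MEG3 sequence is chr14:100825858-100826157 (plus strand), that of MEST chr7:130485925-130486224 (plus strand), that of PLAGL1 chr6:144064550-144064849 (minus strand) and that of GNAS chr20:58839498-58839797 (plus strand).
MEG3: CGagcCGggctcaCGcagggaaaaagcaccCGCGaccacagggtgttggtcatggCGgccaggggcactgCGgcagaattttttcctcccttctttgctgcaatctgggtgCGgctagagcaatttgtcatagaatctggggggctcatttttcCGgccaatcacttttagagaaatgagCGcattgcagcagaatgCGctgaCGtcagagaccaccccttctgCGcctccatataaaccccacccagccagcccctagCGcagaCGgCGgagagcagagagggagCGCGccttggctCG
MEST: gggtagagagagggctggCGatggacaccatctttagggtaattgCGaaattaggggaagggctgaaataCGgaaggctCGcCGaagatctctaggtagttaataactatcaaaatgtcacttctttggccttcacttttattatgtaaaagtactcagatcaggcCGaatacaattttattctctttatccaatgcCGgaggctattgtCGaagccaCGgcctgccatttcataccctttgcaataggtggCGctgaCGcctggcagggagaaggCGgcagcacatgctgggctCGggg
PLAGL1: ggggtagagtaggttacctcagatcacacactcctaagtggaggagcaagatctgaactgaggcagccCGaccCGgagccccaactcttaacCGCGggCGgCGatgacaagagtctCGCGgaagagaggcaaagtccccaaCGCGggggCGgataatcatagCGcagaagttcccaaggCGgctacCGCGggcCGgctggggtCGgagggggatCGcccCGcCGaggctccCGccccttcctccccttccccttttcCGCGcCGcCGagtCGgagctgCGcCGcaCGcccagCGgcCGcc
GNAS: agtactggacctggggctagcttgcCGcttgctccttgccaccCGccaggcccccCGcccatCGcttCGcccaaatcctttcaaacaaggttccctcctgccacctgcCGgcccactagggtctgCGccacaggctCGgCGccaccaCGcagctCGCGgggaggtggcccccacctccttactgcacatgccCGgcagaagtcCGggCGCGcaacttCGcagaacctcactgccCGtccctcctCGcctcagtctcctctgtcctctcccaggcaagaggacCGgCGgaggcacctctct

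The 4 sequences hold 19, 13, 31 and 21 CpG sites in the order MEG3, MEST, PLAGL1 and GNAS. Over the 35116 promoters of the table the median was 14, and 57.1%, 48.3%, 79.3% and 60.5% of them held fewer than these 4. The table had 20 promoters for 5 of the 10 members, those named above and H19, whose promoter held 6 CpG sites. IGF2, KCNQ1, PHLDA2, DLK1 and PEG3 were not matched. The hexamer TGCCGC, which in the mouse is the recognition sequence of the imprint-maintaining zinc finger protein ZFP57 when methylated, was looked for on both strands. It was present in 9 of the 20 promoters and in 16.7% of all promoters. Of the 4 sequences above MEG3, MEST and GNAS hold it once each and PLAGL1 does not. Another PLAGL1 promoter, chr6:144008210-144008509 with 39 CpG sites, holds it 2 times, and other MEST promoters hold it up to 3 times. The promoters of a gene overlap in part, so they are not separate cases, and such a match describes letters, not binding.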

How the data were processed

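Chromatin of each line was fixed with formaldehyde and precipitated with an H3K27me3 antibody, per the labels' protocols. The build hg19, the aligner Bowtie and the island caller SICER are named, per the submitters' processing notes; their versions and the read filters are not given here. Windows were 750 bases, gaps up to 2250 bases and the false discovery rate 0.001, as named on each deposited list, and breaks between listed islands were at least 3 kb. Per island the authors deposited the counts of H3K27me3 and input reads, a p-value and q-value, and the fold, a ratio of the counts after library scaling. That scaling, recovered from the deposited folds, was 1.16, 1.27 and 1.65 in Pfeiffer, WSU-DLCL2 and KARPAS-422. The lists hold islands only, so total depth is unknown.

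Gene intervals on hg19, in kb, came with the choice of members, and their strands from RefSeq for 5 genes and general knowledge for the others. Members and lists were chosen with earlier results of these data known. All 10 members are named. The islands given by position or fold are a selection, and not all that were longest, had the highest fold or lay at the gene start are among them. Tiles run from base 1 to the last listed base of each of the 22 autosomes, assembly gaps included. Folds of a locus are summed counts with exact intervals. Coverage and interval functions were tested on simulated data. Alternatives varied the margin, the lists, the scaling and the thresholds. Python 3.11.15, numpy 2.4.6, pandas 2.3.3, scipy 1.17.1 and matplotlib 3.10.9 were used.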

Additional observations from a re-analysis of the deposited data

How the results depend on the processing

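No paired analysis was possible because each line has 1 H3K27me3 library and no test between lines was made; leaving out a replicate was not possible for the same reason. Values are in the order Pfeiffer, WSU-DLCL2 and KARPAS-422. The largest change came with islands of a fold of at least 2. They numbered 9, 5 and 13, the median coverage was 24.6%, 0% and 75.3%, breaks numbered 3, 1 and 7, and covered starts 5 and 3 in Pfeiffer and WSU-DLCL2. PEG3 and MEST then had no island in any line (differences of 0 points), and 4, 1 and 4 loci differed (Pfeiffer with WSU-DLCL2, Pfeiffer with KARPAS-422, WSU-DLCL2 with KARPAS-422). GNAS likewise had none in any line. Among the clustered genes, DLK1 and MEG3 had none in WSU-DLCL2 and PHLDA2 had none in Pfeiffer. Without a margin the median coverage was 82.5% and 73.7% in Pfeiffer and WSU-DLCL2, and with a margin of 20 kb 76.6%, 71.7% and 72.1%. The PEG3 difference of either line from KARPAS-422 was -82.0 and -45.1 points with these margins, and the fold of KARPAS-422 2.35 and 2.24. A q-value of at most 1e-10 gave a median coverage of 81.1% and 5 breaks in Pfeiffer and 6 breaks in WSU-DLCL2. With islands under 5 kb apart joined, Pfeiffer had a median coverage of 94.9% and 4 breaks and KARPAS-422 7 breaks. Scaling by the reads in all autosomal islands turned the folds into ratios to the average island, 1.20, 1.14 and 1.34. Apportioned reads gave a fold of 1.89 in Pfeiffer. At GNAS the fold of KARPAS-422 went from 1.76 to 1.46 with apportioned reads and to 1.41 without a margin. Starts within 1 kb and 5 kb of an island numbered 9 and 10 in KARPAS-422. With a difference of 15 points 2 loci differed for Pfeiffer with WSU-DLCL2 and 2 for WSU-DLCL2 with KARPAS-422. With 40 points 1 differed for Pfeiffer with KARPAS-422. In lists of equal number 2 differed for WSU-DLCL2 with KARPAS-422. Of the values of single loci, 279 stayed near the main one and 70 moved, 28 of these being folds under the other scaling. KARPAS-422 kept the highest summed fold under each other scaling, margin and read rule tried. Depth limits PHLDA2 and MEST most, at 53 and 31 input reads in KARPAS-422.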

Other observations

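The 50 kb upstream of MEST were covered to 81.5% (Pfeiffer), 89% (WSU-DLCL2) and 33% (KARPAS-422), and the 50 kb downstream to 0% in every line. At GNAS the gene's own interval, at 51.4%, 49.3% and 56.5%, was covered less than either side, at 83.5%, 62.5% and 100% upstream and 76.5%, 90% and 81% downstream. PLAGL1 had 44.5%, 44% and 24% covered upstream and 6%, 1.5% and 18% downstream.

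Between IGF2 and KCNQ1, a stretch that the windows leave out, the highest fold of the whole chromosome 11 block in KARPAS-422 lay at 2267251 to 2272500 (134 H3K27me3 and 24 input reads, fold 3.39), and Pfeiffer had its own highest fold of the block in an island with the same borders (124 and 47 reads, fold 2.27). In WSU-DLCL2 the corresponding island, from 2265751 to 2274000, had a fold of 1.63. These islands were singled out after their values had been seen. Their ranks rest on few reads and are not resolved. In Pfeiffer the island from 2081251 to 2159250 had a fold of 2.25 (2.08 to 2.44). In KARPAS-422 that from 2517751 to 2521500 had 3.23 (1.88 to 5.90). In all 3 lines the next long gap followed an island that ended at 2398500 and measured 42 (Pfeiffer), 41.25 (WSU-DLCL2) and 42 (KARPAS-422) kb.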
